A study of Rattus norvegicus with 6 samples.

Results

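Rpph1, Terc and Ccdc107 are 3 rat genes, each read by 1 probe set, whose deposited intensities were low together on a single array of untreated neurons. The genes were taken by symbol from the probe sets whose platform annotation names exactly 1 gene. This gave 3 of 15310 such probe sets, from 29215 in all (3 of 14506 genes), and no probe set that names several genes includes any of the 3. The low value on untreated array 1 is a measured value: Ccdc107 was chosen by it to join the noncoding RNA genes Rpph1 and Terc. It is therefore given below as a description, without a test.

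The study cultured cortical neurons of Sprague-Dawley rat embryos of day 18 for 3 days. Each of 6 one-colour Affymetrix arrays measured total RNA of such a culture, 3 left untreated and 3 exposed for 3 h to 10 nM C1q. This complement protein is the recognition molecule of the classical complement pathway, and the series title links it to neuroprotection. The labels name no transgene or other agent. They number the arrays 1 to 3 in each group without saying whether a number marks a separate culture or animal, so the p-values reflect only how far these arrays differ, and that spread may be technical.

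Rpph1 is the symbol of the RNA subunit of RNase P, the ribozyme that removes the 5′ leader from precursor tRNAs. A related particle, RNase MRP, shares most of the protein subunits and acts on precursor ribosomal RNA. Both RNAs are made by RNA polymerase III from promoters that lie upstream of the gene. Terc is the RNA subunit of telomerase and carries the template for telomere repeats. It is made by RNA polymerase II, and telomerase activity is known to fall when neural progenitors leave the cell cycle. The mature RNAs of Rpph1 and Terc carry no poly(A) tail. Ccdc107 encodes a coiled-coil protein.

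The annotation leaves room for doubt about 2 of the 3 names. The RefSeq entry for Rpph1, 257 bases long, lists Rmrp as a synonym and is typed as RNase MRP RNA, and the RefSeq table of the GRCr8 assembly types 0 genes as RNase P RNA. The entry lies inside the span of Parp2, next to Tep1. In the human genome the RNase P RNA gene also adjoins PARP2, whereas the gene of the RNase MRP RNA adjoins CCDC107. The Ccdc107 probe set is tied to a single GenBank sequence that is not among the Ccdc107 transcripts of the RefSeq table, whereas 88.8% of single-gene probe sets had at least 1 matching transcript. Which RNA of the Ccdc107 locus this probe set reads was not tested. The Rpph1 and Terc probe sets matched their RefSeq RNAs.

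Promoter windows were available for Ccdc107 and for Parp2, whose window overlaps the Rpph1 entry, and they are shown because these loci hold RNAs that were low on the same array. Each window holds 300 bases around an annotated start of the gene that names it, from RefSeq on GRCr8. The Ccdc107 window is chr5:62545100-62545399 on the plus strand, and the Parp2 window is chr15:26507409-26507708 on the plus strand, of which the first 80 bases belong to the Rpph1 entry. Capitals mark the octamer ATGCAAAT on either strand, a motif bound by POU-domain transcription factors.
Ccdc107 window: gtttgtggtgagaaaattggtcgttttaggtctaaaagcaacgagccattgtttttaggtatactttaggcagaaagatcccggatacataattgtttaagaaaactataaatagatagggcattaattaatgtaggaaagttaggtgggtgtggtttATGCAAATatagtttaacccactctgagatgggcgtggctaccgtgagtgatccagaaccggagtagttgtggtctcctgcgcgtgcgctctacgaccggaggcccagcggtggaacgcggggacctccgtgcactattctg
Parp2 window with part of Rpph1: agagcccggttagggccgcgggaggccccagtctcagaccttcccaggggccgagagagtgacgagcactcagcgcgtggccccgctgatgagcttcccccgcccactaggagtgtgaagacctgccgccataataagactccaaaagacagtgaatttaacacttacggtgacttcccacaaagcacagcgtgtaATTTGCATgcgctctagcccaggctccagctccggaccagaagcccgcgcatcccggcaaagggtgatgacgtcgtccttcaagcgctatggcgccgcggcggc

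Both windows held 1 copy of the octamer, on the plus strand at bases 159 to 166 of the Ccdc107 window and on the minus strand at bases 197 to 204 of the Parp2 window. Of 33469 promoter windows of the same length, 595 held ATGCAAAT on at least 1 strand, or 1.78%. TATAAA was found in the Ccdc107 window at bases 107 to 112 and CCAAT, on the minus strand, at bases 16 to 20. The Parp2 window held neither. On either strand, TATAAA was present in 14.2% and CCAAT in 37.5% of all windows. The motifs searched do not overlap each other in these windows, and a match describes letters, not a bound site.

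Rpph1 had an intensity of 4414 on untreated array 1, 9339 on untreated array 2 and 9469 on untreated array 3. After C1q it had 9407, 10064 and 9844 on arrays 1 to 3. Untreated array 1 stood alone at 45.9% of the mean of the other 5 arrays, and those 5 lay within 9339 to 10064, with a coefficient of variation of 3.26%. The untreated mean was 7741 ± 2882 and the C1q mean 9772 ± 334 (SD, n = 3 each).

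Terc, a far dimmer signal, had an intensity of 215 on untreated array 1 and 458 and 479 on untreated arrays 2 and 3. After C1q it had 464, 485 and 503. The pattern was that of Rpph1, with untreated array 1 at 45.1% of the mean of the other 5 arrays and a coefficient of variation of 3.74% among those 5. The untreated mean was 384 ± 146.5 and the C1q mean 484 ± 19.6 (SD, n = 3 each).

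Ccdc107 had an intensity of 1476 on untreated array 1, 4267 on untreated array 2 and 4062 on untreated array 3. After C1q it had 4702, 4871 and 4533. Untreated array 1 was at 32.9% of the mean of the other 5 arrays, a deeper drop than for Rpph1 and Terc. The other 5 arrays also varied more, with a coefficient of variation of 7.26%, and the 3 C1q arrays all lay above the 3 untreated ones. The means were 3268 ± 1556 untreated and 4702 ± 169 after C1q (SD, n = 3 each).

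**Figure D1:**
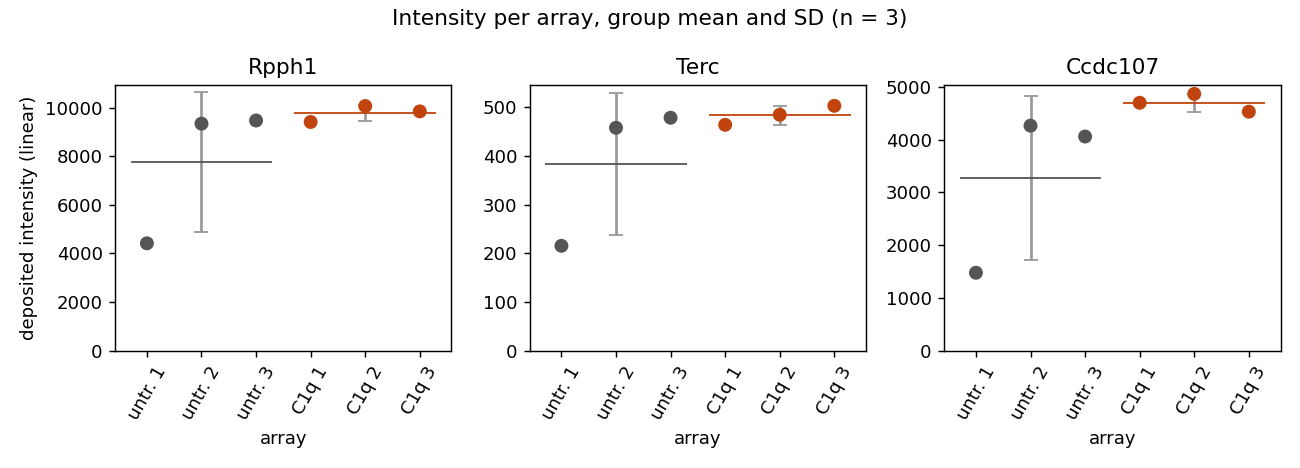
Deposited intensity (linear scale, from 0) of the Rpph1, Terc and Ccdc107 probe sets on each of 3 untreated (grey) and 3 C1q (orange) arrays, 1 point an array, with horizontal lines at the group means and bars of 1 SD (n = 3). Untreated array 1 lies at 4414, 215 and 1476, under all other arrays of the same probe set.

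On the scale of log2(intensity + 16), on which all later comparisons were made, untreated array 1 lay below the mean of the other 5 arrays by a difference of -1.12 for Rpph1, -1.09 for Terc and -1.59 for Ccdc107. The 5 other arrays had SDs of 0.047, 0.052 and 0.11 on that scale. A drop of at least 1 log2 on untreated array 1 was present in 32 of 17529 probe sets that passed the filter on dim signals, or 0.183%. Ranked from the deepest drop, Ccdc107 was at 4, Rpph1 at 19 and Terc at 22. Among the 10302 tested probe sets that name 1 gene they were at 1, 5 and 7.

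Few genes with a name shared so deep a drop. Of the 32 probe sets 7 name 1 gene, and 25 name none or several. Besides Rpph1, Terc and Ccdc107 these were Hdc, which encodes histidine decarboxylase, and the pseudogene LOC366310 with 3 probe sets of identical values. No other array had a comparable set. Probe sets at least 1 log2 below the mean of the other arrays numbered 1 on untreated array 2, 2 on untreated array 3, 0 on C1q arrays 1 and 2 and 1 on C1q array 3. None was that far above on any array.

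**Figure D2:**
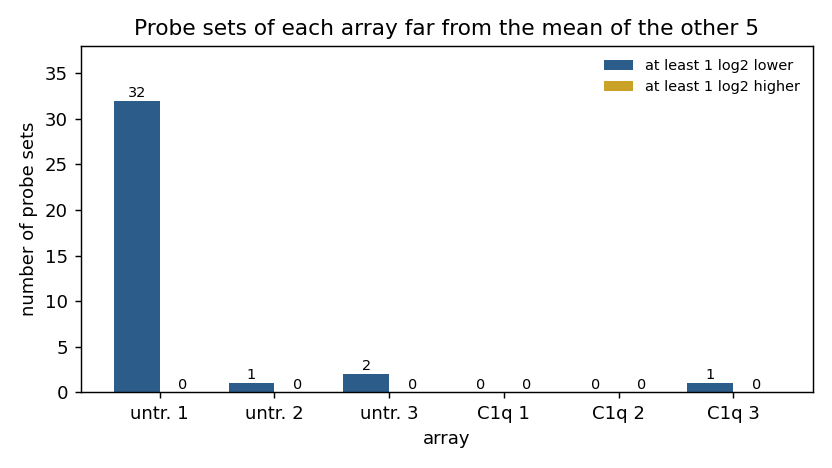
Number of tested probe sets (of 17529) that lay at least 1 log2 below (blue) or above (yellow) the mean of the other 5 arrays, for each array on the horizontal axis. Untreated array 1 has 32 below, every other array has 0 to 2, and no array has any above.

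Untreated array 1 did not stand apart by its median intensity or its correlation with the other arrays. Its median intensity was 150, beside 147 to 155 on the others, and its log2 values correlated with those of the other arrays, across probe sets, at 0.993 on average, beside 0.993 to 0.995 for the others. It had the widest quartile range, from 50.6 to 632, and the median tested probe set lay 0.066 log2 above the mean of the other arrays. On this array 165 tested probe sets lay at least 0.5 log2 below that mean, beside 17 to 40 on each of the others. At least 0.5 log2 above it lay 47, beside 10 to 65. Untreated array 1 was the lowest of the 6 for 10.0% of tested probe sets. All 6 pan-neuronal markers (Tubb3, Map2, Stmn2, Dcx, Snap25 and Rbfox3) passed the filter. So did all 4 oligodendrocyte lineage and all 3 blood markers with a probe set, and 4 of 5 astrocyte markers. Passing the filter thus does not tell cell types apart, and neuronal identity is taken from the labels.

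Summed marker intensities on untreated array 1 lay above those of the other arrays for the excitatory, inhibitory and pan-neuronal lists and the oligodendrocyte lineage. They lay below for the microglial, mural and meningeal, blood and astrocyte lists, for astrocytes only just, at 866 beside 868 to 925. For endothelium and proliferation the sums lay inside the range of the other arrays. The median difference on untreated array 1 was -0.18 for mural and meningeal markers, the lowest list, and 0.15 for the oligodendrocyte lineage, the highest. It was 0.093 for pan-neuronal markers, beside 0.071 over all genes tested. The summed pan-neuronal markers read 34886 on untreated array 1 and 32096 to 33728 on the other arrays. The 4 oligodendrocyte lineage markers summed to 777 there and 668 to 708 on the others. The summed levels of 6 microglial markers, 1 of which passed the filter, were 371 to 423 untreated and 392 to 396 after C1q, with the lowest on untreated array 1. Those of 4 mural and meningeal markers, 2 of which passed, were 400 to 470 and 419 to 448, and of 3 blood markers 1138 to 1330 and 1339 to 1481, each again lowest on untreated array 1. No marker was listed at 0. The part of cell makeup or RNA quality in the low values of Rpph1, Terc and Ccdc107 was not tested.

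The intensities of the 3 probe sets varied together over the 6 arrays mainly through untreated array 1. Rpph1 and Terc had a Pearson correlation of 0.998 over 6 arrays, Rpph1 and Ccdc107 0.994, and Terc and Ccdc107 0.988. Without untreated array 1 the values over 5 arrays were 0.77, 0.63 and 0.21. Spearman's rho was 0.94, 0.71 and 0.60 over 6 arrays and 0.90, 0.50 and 0.30 over 5. These describe few arrays that share a platform and the authors' scaling, and no test was made.

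The difference in log2 value between Rpph1 and Terc on the same array was 4.26 on untreated array 1 and 4.25 to 4.33 on the others, so this array lay within the range of the others. The difference between Rpph1 and Ccdc107 was 1.57 there, outside the range of 1.00 to 1.22 on the others. Ccdc107 was thus further down on this array than Rpph1, by more than that difference varied among the other arrays. These differences compare arrays and do not compare the levels of the genes.

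C1q against untreated neurons was first described on all 6 arrays, a contrast that includes the array by which the genes were chosen. The fold changes were 1.34 for Rpph1, 1.32 for Terc and 1.59 for Ccdc107. Among 9652 tested genes, ranked from the highest fold change, these stood at 5, 6 and 1. The limma fit called 0 of 17529 probe sets higher (0%) and 0 lower (0%) at an adjusted p under 0.05, with 437 at an unadjusted p under 0.05 (2.49%). The C1q and untreated arrays did not overlap, with C1q higher, for Ccdc107, as for 1.30% of probe sets, and they overlapped for Rpph1 and Terc.

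Without untreated array 1, which leaves 2 untreated arrays against 3 with C1q, most of the difference was gone. The fold change of Rpph1 was 1.04 (95% interval 0.981 to 1.10). That of Terc was 1.03 (95% interval 0.932 to 1.14). The C1q and untreated arrays overlapped for both genes, and both intervals end below the fold changes of the 6 arrays. Neither passed, with an adjusted p in limma of 0.9999 for each. In that fit the fold changes ranked 2015 and 2443 among the 9652 genes.

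Ccdc107 kept a smaller difference in the 5 arrays. Its intensity was 4164 ± 145 (SD, n = 2) on untreated arrays 2 and 3 and 4702 ± 169 (SD, n = 3) after C1q, a 1.13-fold difference (95% interval 1.06 to 1.20). It did not pass, with an adjusted p in limma of 0.9999 and an unadjusted p of 0.0020. The fit called 0 probe sets higher and 0 lower (0% each), and 625 had an unadjusted p under 0.05, or 3.57%. Groups without overlap and with C1q higher, as for Ccdc107, were present in 9.46% of probe sets. Among the 9652 genes Ccdc107 ranked 101 by fold change in this fit and 2 by unadjusted p. By unadjusted p Rpph1 and Terc ranked 1096 and 4300.

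**Figure D3:**
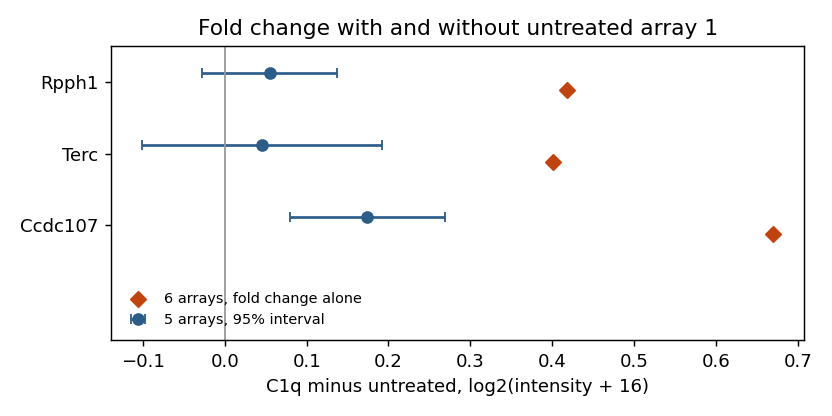
Log2 fold change of C1q over untreated for the 3 genes, with all 6 arrays (orange diamonds, no interval since the array that chose the genes is in the contrast) and without untreated array 1 (blue points with 95% limma intervals, 2 untreated against 3 C1q arrays). The values fall from 0.42, 0.40 and 0.67 to 0.05, 0.05 and 0.17 for Rpph1, Terc and Ccdc107.

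The protein partners of the RNase P and RNase MRP RNAs did not share the low values. Of 11 listed subunits 10 had a single-gene probe set and all 10 were tested. Their median difference between untreated array 1 and the other arrays was 0.082, beside 0.071 over all genes tested, and the lowest was -0.078, for Rpp25l. Pop1, the scaffold subunit, read 245, 231 and 248 untreated and 261, 274 and 262 after C1q. Its groups did not overlap, with C1q higher, as for 1.30% of probe sets, and its fold change of 1.09 (95% interval 0.977 to 1.23) did not pass. Rpp38 read 249, 213 and 223 untreated and 205, 219 and 188 after C1q, and Rpp40 had a fold change of 0.922. In the fit of 6 arrays 0 of the 10 subunits passed, with 6 means higher and 4 lower.

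Telomerase protein genes did not share the low values either. Tert, the catalytic subunit, lay below the filter, at 89.7, 95.7 and 100.5 untreated and 83.9, 87.9 and 86.8 after C1q. Dkc1, the pseudouridine synthase that binds and stabilises the telomerase RNA, read 952, 930 and 935 untreated and 920, 955 and 948 after C1q, with a fold change of 1.00. Of 16 tested telomerase proteins and biogenesis factors 0 passed, with 9 means higher and 7 lower. Nop10, another protein of the telomerase RNA particle, had a fold change of 0.963, Coil, the coilin of Cajal bodies, 0.942 and Larp7, a binder of the 7SK RNA, 0.949. The median difference of this list on untreated array 1 was 0.085.

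Of 12 tested shelterin and telomere protein genes 0 passed, with 4 means higher and 8 lower. Their median log2 fold change was -0.039, beside -0.016 over all genes tested. Terf2, Terf2ip and Terf1, which encode shelterin proteins, had fold changes of 0.924, 0.930 and 0.929. All 12 lay above the mean of the other arrays on untreated array 1, by 0.030 to 0.15, as did 78.6% of all genes tested. With quantile normalization 3 of the 12 lay below it, beside 42.8% of all genes tested.

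RNA polymerase III and tRNA processing genes, 31 of them tested, had 15 means higher and 16 lower, and 0 passed. Ssb, which encodes the La protein that binds the 3′ ends of polymerase III transcripts, had a fold change of 0.910, Snapc3, a subunit of the complex that reads the upstream promoters of small RNA genes, 0.935 and the polymerase subunit gene Polr3b 0.932. Their list had a median of 0.077 on untreated array 1.

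Other noncoding RNA genes had few named probe sets, 4 of 31 listed. Meg3 read 3618, 4002 and 3427 untreated and 3451, 4012 and 3907 after C1q. H19 and Snhg11 had fold changes of 0.939 and 1.02, and none of the 4 passed. The lowest difference on untreated array 1 was -0.052, for Meg3. RefSeq types the genes of 16 probe sets as lncRNA or snRNA, a set chosen after its values were seen. Genes of the list above were not left out of this set, and its highest difference is that of Tug1, 1 of the 4. Of the 16 probe sets 8 were tested, with differences from -0.15 to 0.16 on untreated array 1. Of these, 5 lay below the mean of the other arrays, as did 21.4% of all genes tested. Their median difference was -0.039, beside 0.071 over all genes tested. With quantile normalization it was -0.0185, beside 0.0125. All 8 differences were far smaller than those of Rpph1 and Terc. As the set was chosen after its values were seen, no conclusion is drawn from its lean.

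Genes next to Rpph1, Terc and Ccdc107 on the chromosome did not share the drop in the 4 cases that passed the filter. Parp2, a DNA repair polymerase gene whose span includes the Rpph1 entry, read 437, 376 and 398 untreated and 404, 455 and 400 after C1q, so untreated array 1 was above 4 of the other 5 arrays. Osgep, which acts in tRNA modification, had a difference of 0.068 on untreated array 1 and Mynn, a zinc finger gene near Terc, one of 0.14. Arhgef39, whose span overlaps that of Ccdc107, read 135, 151 and 124 untreated and 124, 153.5 and 136 after C1q, a difference of -0.022. The other 6 neighbours with a probe set, Ccnb1ip1, Actrt3, Cd72, Sit1, Car9 and Tpm2, lay below the filter. Of these dim signals Car9 and Cd72, both near Ccdc107, were lowest on untreated array 1. Car9 read 52.3 there and 65.5 to 95.3 on the others, a difference of -0.40, and Cd72 read 54.0 and 57.7 to 79.6, a difference of -0.28. Of the 4 tested 0 passed, with fold changes of 1.04 for Parp2, 0.917 for Osgep, 0.976 for Mynn and 1.01 for Arhgef39. Osgep had no overlap between the groups, with C1q lower, as for 4.42% of probe sets. The same held for Snapc2 of the polymerase III list, named after its values were seen.

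Replication-dependent histone genes, whose mRNAs end without a poly(A) tail, leaned low on untreated array 1. A link between the lack of a tail and the low values was not tested. Of 19 tested, 12 lay below the mean of the other arrays, as did 21.4% of all genes tested, at a median difference of -0.031 beside 0.071 over all genes tested, and 8 had their lowest value there, as did 6.65% of all genes tested. With quantile normalization 17 of the 19 lay below it, beside 42.8% of all genes tested, and with median centring 12, beside 20.0%. The differences were small next to those of Rpph1 and Terc, with H4c14 the lowest at -0.67. None of the 19 passed. With 6 arrays 16 means were higher after C1q and 3 lower, where 37.0% of all genes tested had a higher mean. Without untreated array 1 it was again 16 of 19, beside 55.3%, and the list's median log2 fold change was 0.028 in place of 0.044. With 6 arrays the fold change was 1.13 for H2ac4 and 1.12 for both Hist1h2bg and Hist1h2bq. The groups of H2ac4 did not overlap, with C1q higher, as for 1.30% of probe sets. Histone genes have close copies, so values of single genes are uncertain.

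**Figure D4:**
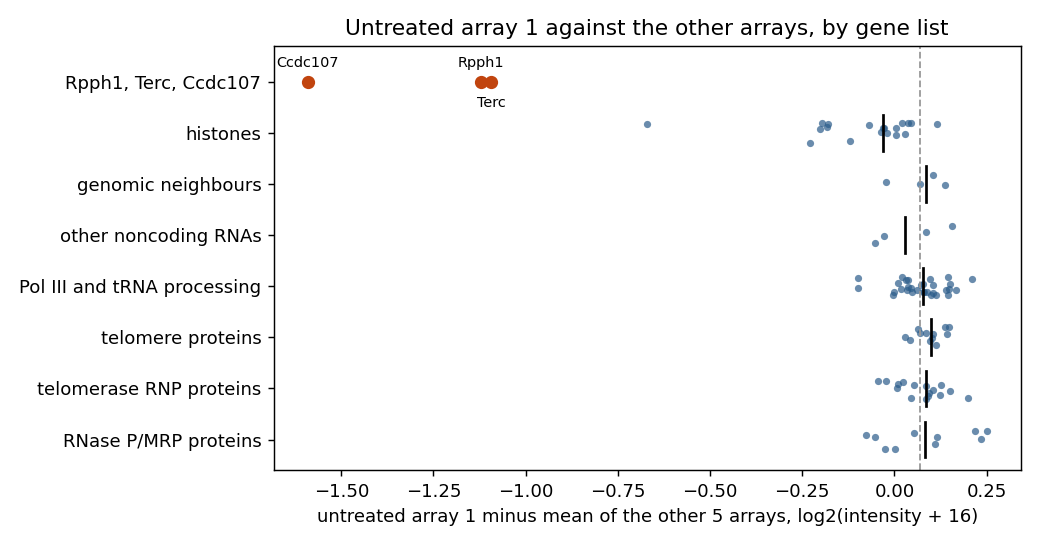
Difference between untreated array 1 and the mean of the other 5 arrays on the log2(intensity + 16) scale for each tested gene of 7 lists (blue points, spread vertically only for legibility) with list medians (black bars), and for Rpph1, Terc and Ccdc107 (orange). The dashed line is the median of 0.071 over all genes tested. The 3 genes lie between -1.59 and -1.09, and the lowest gene of the lists, the histone gene H4c14, at -0.67.

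Genes most like the 3 were sought among 232 tested probe sets with an SD of at least 0.3 log2 over the 6 arrays. Likeness was the Pearson correlation over 6 arrays with the mean of the centred log2 values of Rpph1, Terc and Ccdc107. Only 15 of the 232 name 1 gene, and among these 15 the 8 probe sets of highest correlation name 6 genes. Hdc had a correlation of 0.947, LOC366310 0.923 in each of its 3 probe sets, H4c14 0.919, the transporter gene Spns3 0.915, and the olfactory receptor genes Or12j5 and Or1f26 0.912 and 0.845. Hdc read 101, 236 and 259 untreated and 215, 209 and 266.5 after C1q.

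This likeness rested on untreated array 1. Over the other 5 arrays the correlations were -0.34 for Hdc, 0.42 for LOC366310, 0.74 for H4c14, -0.13 for Spns3, -0.32 for Or12j5 and 0.56 for Or1f26. Among the 232 probe sets, 51 had a correlation above 0.9 over 6 arrays. Of these 0 had one above 0.9 over the other 5, and 21 had one below 0. A further 28 probe sets that name no gene or several correlated more closely than Hdc over 6 arrays, up to 0.995.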

How the data were processed

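The deposited table holds linear intensities, 1 per array, for 29215 probe sets on 6 arrays. How the authors summarised and scaled these values is not given in the sources used here, and signal over background is unknown, as no detection calls entered. Column-purified total RNA was labelled with biotin, per the labels' protocols. Names come from the platform annotation, with 15279 of 15310 single-gene probe sets matched to RefSeq by gene identifier. Values were analysed as log2(intensity + 16), which understates changes of dim probe sets. The brightest 60% by mean were tested, from an intensity of 94.4 on, and Rpph1, Terc and Ccdc107 all passed. The groups were compared in limma 3.58.1 (R 4.3.3) by lmFit and trended eBayes, adjusted by Benjamini-Hochberg over 17529 probe sets. Untreated array 1 chose the genes, so their test is the fit of the other 5 arrays. A listed gene was read from its brightest single-gene probe set. The limma fit was tested on known shifts added to some probe sets of the deposited values, after the group means had been made equal.

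The genes, lists, tests and most alternatives were chosen with earlier results of these data known. Named genes are the 3 genes, up to 3 of smallest unadjusted p per list, the genomic neighbours (3 on each side), Parp2, Tert and Dkc1, and the 8 most alike probe sets. Rmrp was on the list but no probe set names it. A few list members at an extreme, such as Rpp25l, were named after their values were seen. Alternatives were quantile normalization, median centring, pseudocounts of 1 and 64, no filter, the brightest 40%, no trend, the replicate block, array weights and leaving out each array.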

Additional observations from a re-analysis of the deposited data

How the results depend on the processing

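Without untreated array 1, log2 fold changes of Rpph1, Terc and Ccdc107 were positive in all 14 alternatives, at 0.02 to 0.09, 0.01 to 0.08 and 0.14 to 0.21, and 0 passed, with smallest adjusted p in limma of 0.694, 0.819 and 0.104. With 6 arrays, leaving out each array gave 0.05 to 0.60, 0.05 to 0.59 and 0.17 to 0.94, each lowest without untreated array 1, and array weights, which were 0.362, 0.335 and 5.51 for untreated arrays 1 to 3, gave 0.10, 0.07 and 0.29. Untreated array 1 lay below the other untreated arrays by a difference of -1.09 for Rpph1 and -1.49 for Ccdc107, which was -1.17 and -1.56 with quantile normalization, and of -1.07 for Terc, which was -0.93 with a pseudocount of 64. The cause was not tested.

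Same-numbered arrays did not deviate together (correlations of 0.014, -0.45 and -0.13), so the numbers are not taken as pairs. With the replicate block limma called 9 probe sets higher and 0 lower with 6 arrays, and 2 higher and 1 lower with 5. Ccdc107 was among the 9, at an adjusted p of 0.0323, in the contrast that holds the array by which it was chosen; over all alternatives of that contrast its adjusted p was 0.0323 to 1.0. Array weights called 130 higher and 317 lower with 6 arrays, and leaving out the filter 1 lower in either fit. Leaving out each array gave 0 to 28 higher and 0 to 10 lower with 6 arrays, the calls all without untreated array 2. With 5 arrays it gave 0 to 46 higher and 0 to 16 lower, when untreated array 2 was left out, and 2 higher and 1 lower without untreated array 3; both fits leave a lone untreated array, assumed to vary like the C1q arrays. The count of 0 called in each gene list held in the alternatives run for it, but these called at most 1 probe set in all. The count could therefore hardly have changed, and it is no check on the lists. Array weights, the replicate block and leaving out untreated array 2, which gave most of the calls above, were not run for the lists.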
